A study of Mus musculus with 118 samples.

Results

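High-voltage-activated calcium channels were followed through 9 genes, chosen by name with earlier results of these data known, of the 23998 gene symbols in the count table. They are 5 genes for pore-forming alpha1 subunits (Cacna1a, Cacna1b, Cacna1e, Cacna1c and Cacna1d), 3 for alpha2delta subunits (Cacna2d1, Cacna2d2 and Cacna2d3) and 1 for a beta subunit (Cacnb4). Patch-seq supplied the RNA: once a neuron has been recorded, its cytosol is sucked into the patch pipette and converted to cDNA. The cells came from adult SOM-Cre/Ai9 mice, in which the somatostatin-driven Cre recombinase switches on the red marker tdTomato, so that a labelled cell expresses or once expressed somatostatin. The labels give no treatment or other genotype for the groups, which differ by area and layer: layer 4 (L4) and layer 5 (L5) of primary visual (V1) and primary somatosensory (S1) cortex. A cell was kept if at least 1500 genes were above 0, if Slc17a7 counts did not exceed the sum of Gad1 and Gad2, and if Sst was above 0. Kept were 42 of 44 cells in V1 L4, 34 of 39 in S1 L4, 17 of 19 in V1 L5 and 16 of 16 in S1 L5.

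In a high-voltage-activated channel, the alpha1 subunit forms the calcium pore and sets the channel type, a beta subunit brings it to the membrane and shapes its gating, and an alpha2delta subunit raises the number of channels at the surface and at synapses. Cacna1a and Cacna1b encode the P/Q-type and N-type pores that trigger transmitter release at most central terminals. Cacna1e encodes the R-type pore, grouped with them as Cav2 and called release-type here, although R-type channels also work in dendrites. Cacna1c and Cacna1d encode the neuronal L-type (Cav1) pores, which sit mainly on soma and dendrites and link calcium entry to firing and to gene expression. Alpha2delta subunits are also the binding sites of gabapentin, through Cacna2d1 and Cacna2d2.

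Because the animal of a cell is not given in the labels, every area and layer counts as 1 sample. No test was run on cells, and all differences below are descriptions. The titles hold 9 dates, numbered 1 to 9 in order, of which dates 1 to 6 fall in June and July and dates 7 to 9 in September. What the dates mark is not stated, and different dates may share an animal. Each difference was also taken within every date that held at least 2 cells of each group, and the SD over those dates is given as its spread. The total count per kept cell ranged from 97904 to 3295232, with a median of 1111833, and the group medians lay between 1015272.5 and 1199868.5. The 5 interneuron markers checked (Sst, Gad1, Gad2, Slc32a1 and Lhx6) summed to 674 counts per 1000000 (CPM) or more in every kept cell. Sst, Gad1 and Gad2 also entered the rule for keeping cells, so this sum is no separate check of identity. Slc32a1 and Lhx6, which did not enter it, had a count in 92.7% and 80.7% of kept cells. Intervals are at 95%. Poisson intervals of pooled levels cover counting error only, since the reads carry no molecular identifiers. Exact binomial intervals of shares of cells treat the cells as separate draws, which cells of 1 animal are not, and neither kind covers the spread between animals.

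In the GENCODE M21 annotation of GRCm38, the pore genes lie at chr8:84388440-84640246 (Cacna1a, plus strand), chr2:24603887-24763152 (Cacna1b, minus), chr1:154390731-154884501 (Cacna1e, minus), chr6:118587240-119196418 (Cacna1c, minus) and chr14:30039939-30491455 (Cacna1d, minus). The auxiliary genes lie at chr5:15934691-16374511 (Cacna2d1, plus), chr9:107399612-107529343 (Cacna2d2, plus), chr14:28904943-29721864 (Cacna2d3, minus) and chr2:52428320-52676831 (Cacnb4, minus). Counts cover whole genes, so isoforms were not told apart. The gene length that links deposited counts to deposited RPKM (reads per kilobase and per 1000000 reads) ran from 3.61 kb for Cacna2d3 to 12.4 kb for Cacna1c. Levels of different genes are therefore compared only in RPKM, and CPM is used to compare 1 gene between groups.

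In all, 8 of the genes were read in most cells and Cacna2d1 in few. A count was present for Cacna2d3 in 96.3% of all kept cells, for Cacnb4 in 89.9%, Cacna1a in 86.2%, Cacna1e in 85.3%, Cacna1b in 82.6%, Cacna1c in 77.1%, Cacna2d2 in 71.6% and Cacna1d in 56.9%. Cacna2d1 had a count in 11 cells, or 10.1% (exact Clopper-Pearson interval 5.15% to 17.3%). Thinning to 250000 reads, which left out the 3 cells below that number, put Cacna2d3, Cacnb4, Cacna1e and Cacna1b at 94.3%, 90.6%, 87.7% and 82.1% of cells. In the same thinned cells Cacna1a was detected in 78.3%, Cacna1c in 69.8%, Cacna2d2 in 64.2%, Cacna1d in 49.1% and Cacna2d1 in 7.55%.

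Per length, the alpha2delta gene Cacna2d3 and the beta gene Cacnb4 stood above every pore gene. The median RPKM over all kept cells was 69.9 for Cacna2d3 and 49.0 for Cacnb4. Among the pore genes it was 11.1 for Cacna1e, 5.04 for Cacna1b, 4.82 for Cacna1a, 2.32 for Cacna1c and 0.34 for Cacna1d. The release-type genes thus all had higher medians than both L-type genes. Cacna2d2 had a median of 2.98 RPKM and Cacna2d1 of 0.

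Cells differed widely at each gene. Cacna2d3 ran from 0 to 1201 CPM and Cacna1e from 0 to 2219 CPM. The SD of log2(CPM + 1) over cells was smallest for Cacna2d1, at 1.37, a gene at 0 in most cells, and next for Cacna2d3, at 2.22, and between 2.61 and 2.99 for the other 7 genes. Some pooled levels rested on 1 cell. In V1 L5, 72.1% of all Cacna1d counts and 100% of all Cacna2d1 counts came from 1 cell, and in V1 L4 a single cell held 94.9% of the Cacna2d1 counts.

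**Figure D1:**
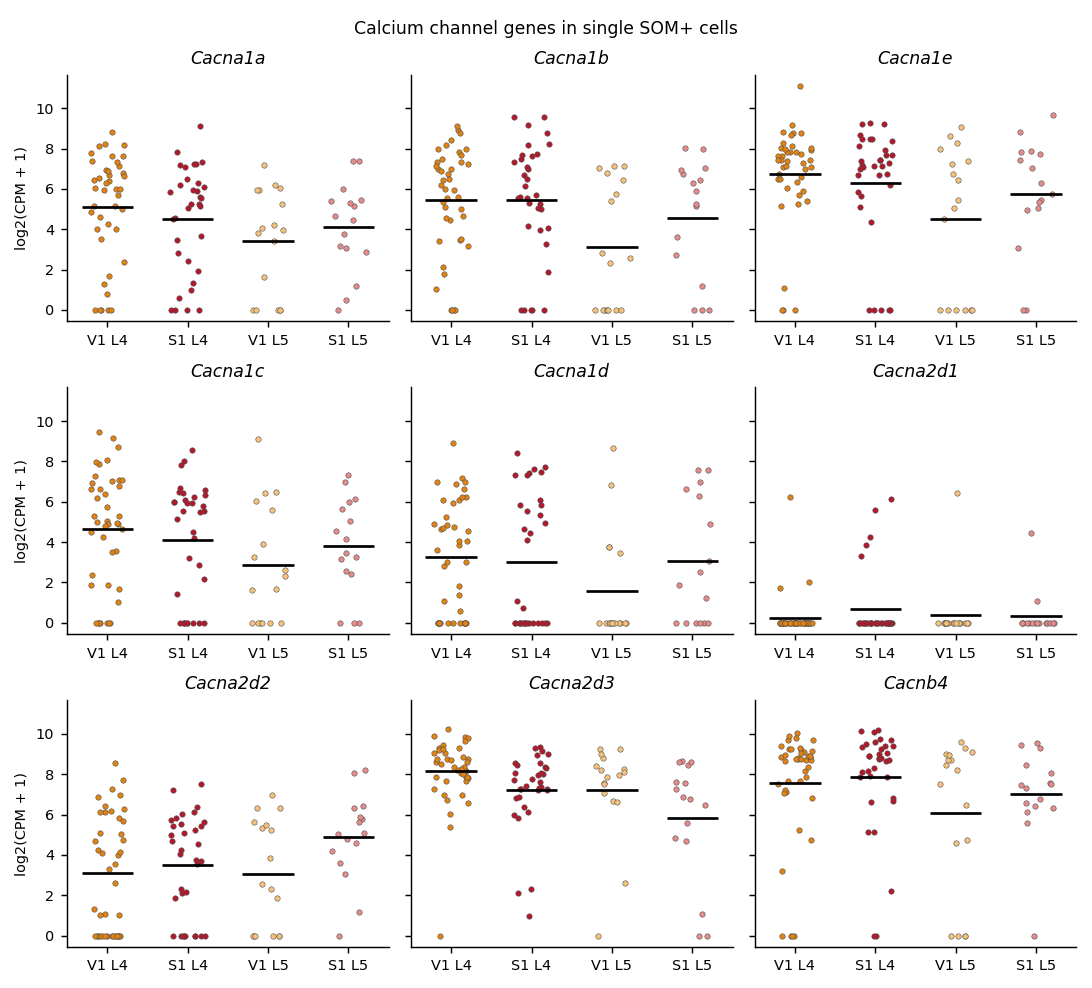
Expression of the 9 calcium channel genes in each kept cell, as log2(CPM + 1), by area and layer, with points for cells and black lines for group means. The 4 groups overlap at each gene, Cacna2d1 lies at 0 in all but 11 cells, and every other gene shows cells at 0 beside cells with high values.

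Among the release-type genes, Cacna1e (R-type) ran from 0 to 2219 CPM with a median of 166.8 in V1 L4, from 0 to 618 with a median of 140.97 in S1 L4, from 0 to 530 with a median of 43.3 in V1 L5 and from 0 to 822 with a median of 64.4 in S1 L5. Cacna1b (N-type) had medians of 67.6, 48.5, 4.87 and 48.4 CPM in the same order of groups, with highest cells at 562, 758, 139.8 and 257 CPM. Cacna1a (P/Q-type) had medians of 63.3, 37.3, 14.6 and 22.7 CPM, with the highest cell at 547 CPM, in S1 L4. All 3 were lowest by mean and by median in V1 L5, and the ranges of all 4 groups overlapped at each gene.

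The L-type gene Cacna1c had medians of 30.2 CPM in V1 L4 and 44.3 in S1 L4, beside 3.96 in V1 L5 and 13.3 in S1 L5. Cacna1d had medians of 12.3, 0.88, 0 and 3.70 CPM in the same order. Cacna1d was detected in 29 of 42 V1 L4 cells, 18 of 34 S1 L4 cells, 5 of 17 V1 L5 cells and 10 of 16 S1 L5 cells. V1 L5 thus had the lowest share, 29.4% (interval 10.3% to 56.0%), and V1 L4 the highest, 69.0% (interval 52.9% to 82.4%).

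Over cells of all dates, September included, the mean log2(CPM + 1) of each pore gene was highest in V1 L4 and lowest in V1 L5. For Cacna1e the order was V1 L4 (6.73), S1 L4 (6.29), S1 L5 (5.77) and V1 L5 (4.52), and for Cacna1b it was 5.45, 5.44, 4.58 and 3.14. No pair of neighbours in these orders differed by more than the larger SD of their date means, for any of the 5 pore genes. Between the highest and the lowest group the gap was larger than that SD for Cacna1a (1.71), Cacna1b (2.31), Cacna1e (2.21) and Cacna1d (1.71), and not for Cacna1c (1.74, beside an SD of 1.84). For these genes V1 L4 includes September dates, which hold no L5 cell. In cells of dates 1 to 6, L5 minus L4 in V1 was -1.21 for Cacna1a and -1.50 for Cacna1e. Both lay within their SDs over shared dates, 1.66 and 1.67. Cacna1b (-2.80, SD 0.93) and Cacna1d (-1.37, SD 0.83) differed by more than their SDs. Only 2 neighbouring pairs among all 9 genes passed this mark, each narrowly. These were Cacna2d2 in S1 L5 over S1 L4 (1.36, SD 1.31) and Cacna2d3 in S1 L4 over S1 L5 (1.39, SD 1.38).

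The comparison of areas in L4 asks how SOM+ cells of S1 differ from those of V1 in the layer on which the study centred. None of the 9 genes differed by 1 or more on the log2 scale, the fold used as a mark for all genes. Among the 9201 genes with at least 32 counts in at least 10 of the cells compared, 8.12% were higher and 7.66% lower in S1 by that much, and 3.2% were so with the same sign in every date. Of the 9 genes, 8 passed that filter on counts, Cacna2d1 being the exception. The largest gap was at Cacna2d3, with a mean of 8.14 in V1 L4 and 7.20 in S1 L4, a difference of -0.94. Its cells ran from 0 to 1201 CPM with a median of 326 in V1 and from 0.93 to 649 CPM with a median of 184 in S1. The difference was below 0 in 4 of 5 dates, with an SD over dates of 1.95, so it lay within the spread. It was -1.36 in the June and July dates alone, -0.57 in the September dates, -0.58 without date 2, -1.48 with the cells without Sst kept and -0.29 as the mean of the differences within dates.

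All 5 pore genes had lower means in S1 L4 than in V1 L4, by between 0.01 (Cacna1b, 5.45 and 5.44) and 0.57 (Cacna1a, 5.10 and 4.53). Their median difference was -0.44, beside 0.01 over all genes compared and -0.31 over the 662 genes compared of at least 7 kb. Each of these differences was smaller than its SD over dates, and none of the 5 genes kept a difference below 0 both in the June and July dates and in the September dates. In the June and July dates Cacna1a (0.16), Cacna1e (0.46) and Cacna1c (0.39) were above 0, beside -1.28, -1.31 and -1.40 in the September dates. Cacna1b (0.34) and Cacna1d (0.10) were above 0 in the September dates, beside -0.34 and -0.71 in June and July. In S1 L4 the oligodendrocyte markers Mbp, Mog and Mobp summed to a median of 534 CPM (0 to 9510), and in V1 L4 to 69.0 CPM (0 to 3717). Mbp gave most of the pooled sum in every group, with 967 of 1030 CPM in S1 L4 and 220 of 226 CPM in V1 L4. Mog had a count in 1 of 34 S1 L4 cells and 1 of 42 V1 L4 cells. Pvalb, the marker of fast-spiking interneurons, had a count in 18 of 34 S1 L4 cells and in 10 of 42 V1 L4 cells. The part of these cells' RNA in the calcium channel differences was not tested.

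In L5, where the same question was put to the deeper layer, 4 genes had means higher in S1 by 1 or more and 1 had a lower mean. Of the 6402 genes compared, 23.6% were higher and 10% lower in S1 by that much. The higher ones were Cacna2d2 (3.05 in V1, 4.86 in S1), Cacna1d (1.55 and 3.04), Cacna1b (3.14 and 4.58) and Cacna1e (4.52 and 5.77), and the lower one was Cacna2d3 (7.24 and 5.81). Of the 9 genes, 7 passed the filter on counts, and Cacna2d1 and Cacna1d did not. Only Cacna2d2 passed the fold with the same sign in every date, as did 12.7% of the genes compared.

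Cacna2d2 ran from 0 to 122.6 CPM with a median of 4.84 in V1 L5, and from 0 to 301 CPM with a median of 32.6 in S1 L5. It was detected in 11 of 17 cells in V1 and 15 of 16 in S1, and the cells of both areas overlapped. The difference of 1.81 was 2.47 in date 3, 1.72 in date 4, 1.96 in date 5 and 1.68 in date 6, with an SD of 0.36 over these dates, the smallest SD of the 9 genes in this comparison. It lay above that of 93.6% of genes compared. With a pseudocount of 10 it was 0.91, below the fold. The pooled level in S1 L5 was 83.1 CPM (Poisson interval 79.1 to 87.3), of which 1 cell gave 47.3% of the counts, and it was 50.4 CPM without the cell of the highest CPM. The pooled level in V1 L5 was 26.4 CPM (interval 24.2 to 28.8).

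Cacna2d3 went the other way in the same cells. It ran from 0 to 603 CPM with a median of 247 in V1 L5 and from 0 to 400 CPM with a median of 111.5 in S1 L5. The difference of -1.43 was 0.40 in date 3, -1.13 in date 4, -2.51 in date 5 and -2.61 in date 6, with an SD of 1.41. It was about as large as its spread over dates, lay above that of 4.45% of genes compared, and was -0.85 without date 5.

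The pore genes were higher in S1 L5 than in V1 L5 for all 5, by 0.71 (Cacna1a) to 1.48 (Cacna1d), with a median of 1.25. The median was 0.24 over all genes compared and 0.68 over the 491 of at least 7 kb. For Cacna1b the difference of 1.44 was 3.89, 3.36, -0.29 and 0.48 in dates 3 to 6, with an SD of 2.07. For Cacna1e the difference of 1.25 was 2.37, 2.02, -0.63 and 2.12, with an SD of 1.41. None of the pore genes differed by more than the SD over dates. Cacna1a was above 0 in 2 of 4 dates and turned to -0.66 without date 5, and Cacna1c turned to -0.35 without date 3. Without date 3 the number of channel genes past the fold was 2 in place of 5, namely Cacna2d2 and Cacna2d3, and the same 2 genes passed it on log2(RPKM + 1), with Cacna2d2 at 1.18. The oligodendrocyte markers had summed medians of 88.7 CPM in V1 and 271 CPM in S1, and the microglia markers (Cx3cr1, P2ry12, C1qa and Csf1r) summed medians of 6.71 CPM and 0. Pvalb had a count in 1 of 17 V1 L5 cells and 7 of 16 S1 L5 cells, and the astrocyte markers Aqp4, Gfap, Gja1 and Slc1a3 had pooled levels of 0.83 and 49.5 CPM. V1 L5 cells averaged 6272 genes with a count, and S1 L5 cells 6952. The part of these values in the differences was not tested.

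**Figure D2:**
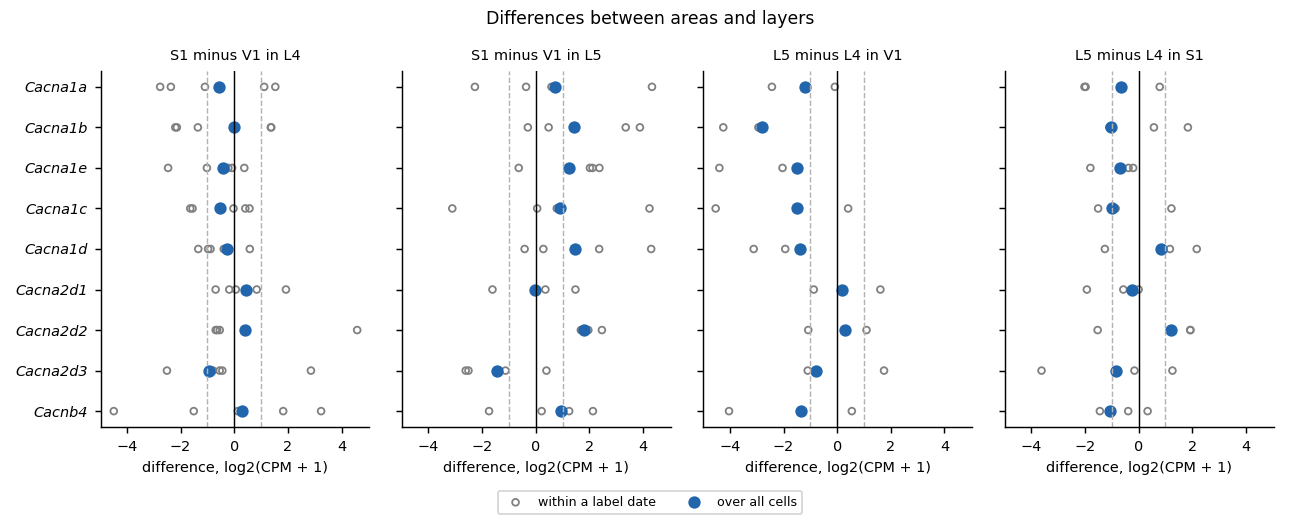
Difference in mean log2(CPM + 1) of each calcium channel gene in the 4 comparisons, over all cells (filled points) and within each label date with at least 2 cells of each group (open circles), with dashed lines at differences of 1 and -1. Between areas in L5, Cacna2d2 is the one gene whose open circles all lie past the same dashed line, from 1.68 to 2.47 in 4 dates. Between layers of V1, with 2 dates, all open circles of Cacna1b, Cacna1e and Cacna1d lie below -1.

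Layers were compared with cells of dates 1 to 6 only, since no L5 cell has a September date. The L5 cells carry dates 3 to 6, so dates 1 and 2 hold L4 cells alone. These are 3 and 11 V1 L4 cells, and 0 and 4 S1 L4 cells, and they stayed in the comparison. In V1, 17 L5 cells were set against 21 L4 cells, and 6 of the 9 genes had means lower in L5 by 1 or more, with none higher. Of the 6696 genes compared, 15.6% were lower and 22.3% higher by that much. Cacna1b had the largest difference, -2.80 (5.94 in L4, 3.14 in L5), followed by Cacna1e (-1.50), Cacna1c (-1.49), Cacna1d (-1.37), Cacnb4 (-1.33) and Cacna1a (-1.21). Of the 9 genes, 7 passed the filter on counts, and Cacna1d and Cacna2d1 did not. Of the 6 genes, 4 (Cacna1a, Cacna1b, Cacna1e and Cacna1d) had the same sign in both dates that held at least 2 cells of each layer, and 18.5% of all genes compared passed the fold in this way. Over the kept cells of all dates, V1 L4 cells averaged 6287 genes with a count and V1 L5 cells 6272. In the same cells the microglia markers summed to at most 1228 CPM in a cell of V1 L4 and 2021 CPM in a cell of V1 L5, with medians of 5.28 and 6.71 CPM, and their part in these differences was not tested.

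For Cacna1b the 2 dates gave -4.25 (date 3, 2 L4 and 5 L5 cells) and -2.94 (date 5, 3 and 4 cells), with an SD of 0.93. Only 0.58% of genes compared had a lower difference, and Cacna1b was detected in 10 of 17 V1 L5 cells. It stayed past the fold under every alternative tried, between -4.14 and -1.50. For Cacna1d the dates gave -3.11 and -1.94, with an SD of 0.83. The differences of Cacna1a, Cacna1e, Cacna1c and Cacnb4 were smaller than their SD over dates. Without date 3 the number of genes past the fold was 2, Cacna1a and Cacna1b, and on log2(RPKM + 1) it was 1, Cacna1b. Cacna1a was at -0.07 without date 2.

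The pore genes' median difference between the layers of V1 was -1.49, beside 0.15 over all genes compared. The 533 genes compared of at least 7 kb had a median of -0.55, and 71.1% of them lay below 0, beside 45.0% of all genes compared. All 9 channel genes but Cacna2d2 and Cacna2d3 have deposited lengths of at least 7 kb. These 2 shorter genes differed by 0.28 and -0.78. The part of gene length in the layer differences was not tested further.

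In S1, 16 L5 cells were set against 16 L4 cells, and 3 of the 9 genes passed the fold. Cacna2d2 was higher in L5 by 1.21 (3.65 in L4, 4.86 in L5), and Cacna1b and Cacnb4 were lower, with differences of -1.03 (5.61 and 4.58) and -1.08 (8.11 and 7.03). Of the 6492 genes compared, 23.3% were higher and 9.8% lower by that much. None of the 3 had the same sign in all 3 dates with at least 2 cells of each layer, whereas 15.1% of all genes compared passed the fold with 1 sign in every date. Cacna2d2 was 1.93, 1.93 and -1.53 in dates 3, 4 and 5. For Cacna1b those dates gave 1.84, 0.57 and -1.09, so that its mean within dates was 0.44, opposite in sign to the difference over all cells. Cacnb4 differed by -0.39, 0.34 and -1.44. Cacna1e was lower in L5 in all 3 dates (-1.80, -0.37 and -0.20), by -0.71 over all cells. The pore genes' median was -0.71, with 0.27 over all genes compared and 0.09 over the 518 of at least 7 kb. Of the 9 genes, 8 passed the filter here, Cacna2d1 being the exception. Over the kept cells of all dates, microglia markers had a count in 22 of 34 S1 L4 cells and 6 of 16 S1 L5 cells. The oligodendrocyte markers had summed medians of 534 CPM in S1 L4 and 271 CPM in S1 L5, and the cells averaged 6290 and 6952 genes with a count. The part of these values in the layer differences was not tested.

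The summed release-type genes exceeded the summed L-type genes in most cells of every group. The first sum holds 3 genes and the second 2, so equal levels at every gene would also put the first higher. The summed RPKM of Cacna1a, Cacna1b and Cacna1e was above that of Cacna1c and Cacna1d in 95 of the kept cells, or 87.2% (interval 79.4% to 92.8%), below it in 13 and equal at 0 in 1. By group this held in 37 of 42 V1 L4 cells, 30 of 34 S1 L4 cells, 13 of 17 V1 L5 cells and 15 of 16 S1 L5 cells. The release-type sum had medians of 34.3, 35.1, 18.5 and 21.4 RPKM in these groups, and the L-type sum medians of 7.65, 6.48, 1.11 and 5.63 RPKM. Both sums were thus lowest in V1 L5.

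The balance per cell, log2(release-type RPKM + 1) minus log2(L-type RPKM + 1), had medians of 1.97 in V1 L4, 1.65 in S1 L4, then 2.28 for V1 L5 and 1.38 for S1 L5. Its median was above 0 in all 9 dates, between 1.30 and 2.94. Between groups the mean balance differed by -0.14 (S1 minus V1 in L4), -0.23 (S1 minus V1 in L5), 0.01 (L5 minus L4 in V1) and -0.37 (L5 minus L4 in S1). These differences were smaller than their SDs over dates, 1.07, 1.68, 1.42 and 1.27. Release-type genes, 3 of the 5 pore genes, made up 77.5% of the summed pore RPKM for L4 of V1, 77.5% for L4 of S1, 68.3% for L5 of V1 and 75.5% for L5 of S1. Without Cacna1e, the R-type gene, which leaves 2 genes on each side, the median balance over all cells was 0.97.

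**Figure D3:**
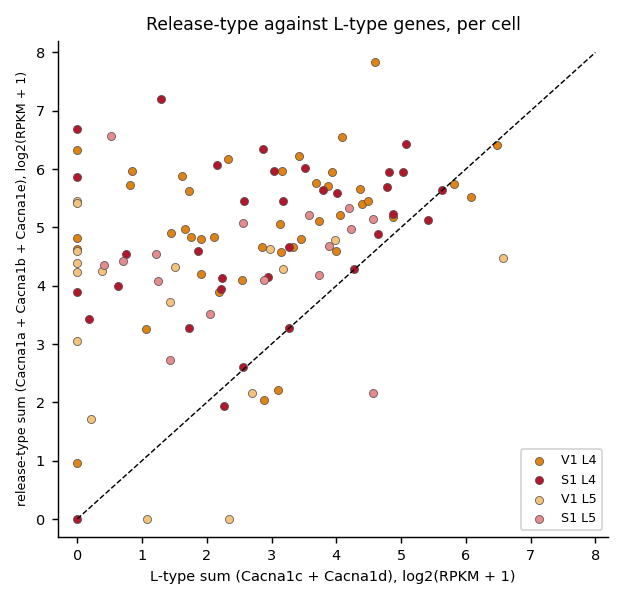
Summed RPKM of the release-type genes against that of the L-type genes in each kept cell, both as log2(RPKM + 1), colored by area and layer, with a dashed line where the sums are equal. The 95 points above the line, or 87.2%, have more release-type than L-type RPKM, and the colors overlap throughout.

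No single pore gene led in all cells. Of the cells with any pore gene count, all kept cells but 1, Cacna1e had the highest RPKM in 44, Cacna1b in 26, Cacna1a in 21, Cacna1c in 10 and Cacna1d in 7. Cacna1e led most often in each group, in 16 of 42 V1 L4 cells, 13 of 33 S1 L4 cells, 7 of 17 V1 L5 cells and 8 of 16 S1 L5 cells. All 5 pore genes were detected together in 39 of the kept cells, 4 of them in 39 cells, and none in 1 cell. The mean number detected was 4.24 in V1 L4, 3.85 in S1 L4, then 2.88 for V1 L5 and 4.06 for S1 L5. At 250000 reads per cell it was 4.05, 3.59, 2.73 and 3.73, so V1 L5 also stood lowest at equal depth. The 36 pairs of channel genes had Pearson correlations of log2(CPM + 1) between -0.13 and 0.25 over all kept cells, with a median of 0.05. These values also carry the depth of each cell, and correlations of this size in sparse counts are no finding.

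Cacna2d3 was the main alpha2delta gene, and the pooled share of Cacna2d2 was highest in S1 L5. Cacna2d3 made up 93.6% of the summed alpha2delta RPKM for L4 of V1, 91.0% for L4 of S1, 92.8% for L5 of V1 and 78.1% for L5 of S1. Cacna2d2 made up 6.17%, 8.12%, 6.33% and 21.5%. Cacna2d1 held between 0.23% and 0.90% and led in no cell. Cacna2d3 led in 40 of 41 V1 L4 cells with any alpha2delta count, 31 of 34 S1 L4 cells, 15 of 16 V1 L5 cells and 10 of 16 S1 L5 cells (62.5%, interval 35.4% to 84.8%).

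Within cells, the share of Cacna2d2 averaged 10.5% for V1 L5 and 38.6% for S1 L5, with medians of 2.85% and 18.8%. The difference in mean share, 28.02 percentage points, was above 0 in 4 of 4 dates, with an SD of 6.31 over dates. In L4 the means were 6.94% for V1 and 14.2% for S1, which is 7.28 points more. That difference was above 0 in 4 of 5 dates, with an SD of 5.83. Between the layers of S1, in cells of dates 1 to 6, the mean share was 18.6% in L4 and 38.6% in L5. That difference of 19.99 points was above 0 in 2 of 3 dates and lay within its SD of 20.88. The 6 S1 L5 cells in which Cacna2d2 led carried 4 different dates: 2 had date 3, 1 date 4, 2 date 5 and 1 date 6. Their Cacna2d2 levels were 85.0, 301, 271, 57.0, 1.21 and 26.7 CPM, and their Cacna2d3 levels 27.97, 106.9, 24.7, 0, 0 and 1.07 CPM. The cell at 1.21 CPM thus led at a very low level of both genes. In the other 10 S1 L5 cells Cacna2d3 ran from 46.7 to 400 CPM.

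**Figure D4:**
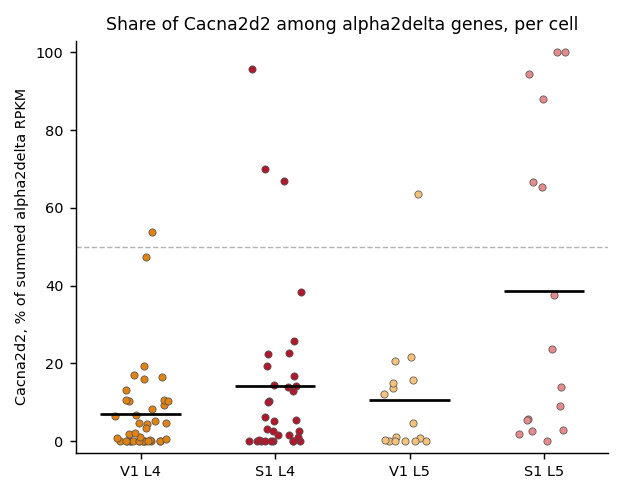
Share of Cacna2d2 in the summed RPKM of Cacna2d1, Cacna2d2 and Cacna2d3 in each cell with any of them, in percent, by area and layer, with black lines for group means and a dashed line at 50%. In S1 L5, 6 of 16 cells lie above 50% and the mean is 38.6%, beside 10.5% in V1 L5.

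The single beta gene among the 9, Cacnb4, had medians of 431 CPM in V1 L4 (0 to 1073), 436 in S1 L4 (0 to 1157), 296 in V1 L5 (0 to 780) and 168.8 in S1 L5 (0 to 739). Its mean log2(CPM + 1) was 7.55, 7.85, 6.09 and 7.03, and 4 of 17 V1 L5 cells had no count. V1 L5 thus held the lowest mean and S1 L5 the lowest median. Set beside the other 3 beta genes, Cacnb4 held 60.0% of the summed beta RPKM in V1 L4, 46.0% in S1 L4, then 45.5% for V1 L5 and 31.3% for S1 L5. Cacnb3, which encodes another neuronal beta subunit, held 21.6%, 37.2%, 35.8% and 54.8%. Cacnb4 led in 30 of 40 V1 L4 cells with any beta count and in 5 of 15 S1 L5 cells, and Cacnb3 in 4 and 9 of them.

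Among 6 further subunit genes (Cacna1f, Cacna1s, Cacnb1, Cacnb2, Cacnb3 and Cacna2d4), 1 was higher in S1 by 1 or more in L4, and 2 were higher and 1, Cacnb1 (3.75 in V1, 2.68 in S1), lower in S1 in L5. Over all genes compared the shares were 8.12% higher in L4, and 23.6% higher and 10% lower in L5, and only Cacnb1 and Cacnb3 of the 6 passed the filter on counts. Cacnb3 had a mean of 3.81 in V1 L4 and 5.46 in S1 L4, a difference of 1.65 that was above 0 in 5 of 5 dates (SD 1.41) and above that of 98.5% of genes compared. In L5 it was 3.81 and 5.71, a difference of 1.90 that was above 0 in 2 of 4 dates (SD 2.55). Cacnb2 had means of 0.70 in V1 L5 and 2.87 in S1 L5, a difference of 2.18 that was above 0 in 4 of 4 dates (SD 1.79), although it did not pass the filter on counts. Cacna1f and Cacna1s, the L-type genes best known from retina and skeletal muscle, had a count in 4 and 3 kept cells, and Cacna2d4 in 5. Between layers, none of these 6 genes passed the fold in V1. Of all genes compared there, 22.3% were higher and 15.6% lower in L5 by 1 or more. In S1 only Cacnb1 passed the fold, being lower in L5. Its difference of -1.47 was below 0 in 2 of 3 dates (SD 1.65). Among all genes compared in S1, 23.3% were higher and 9.8% lower in L5 by 1 or more.

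Other lists hold genes for proteins that act on the channels. Of the 4 RGK GTPases, which bind beta subunits and inhibit the current, Rem2 had means of 3.68 in V1 L4 and 2.18 in S1 L4, a difference of -1.50 that was below 0 in 5 of 5 dates (SD 2.27). Rem2 was also lower in L5 than in L4 of V1 (4.33 in L4, 2.71 in L5), and Gem, which did not pass the filter on counts, was lower in S1 L5 than in V1 L5 (1.45 in V1, 0.38 in S1). Of the 3 Stac adaptors, which bind L-type channels, only Stac2 was detected widely, in 89.0% of cells, and its mean was 5.38 in V1 L5 and 6.56 in S1 L5. That difference of 1.18 was above 0 in 3 of 4 dates and lay within its SD of 1.23. Of 6 active zone proteins, which hold channels at release sites, none passed the fold between areas in L4 and 2 were higher in S1 L5. Of all genes compared, 15.8% passed the fold in L4 in either direction, and 23.6% were higher in S1 in L5 by 1 or more. The 2 were Rims1 (3.19 and 4.43) and Erc2 (5.03 and 6.14), and Erc2 was above 0 in 4 of 4 dates (SD 0.57). Between layers, Rims1 was lower in L5 of V1 (-1.14) and Rims2 lower in L5 of S1 (-1.13), each with 1 sign in every date compared. Of all genes compared, 15.6% were lower in L5 of V1 and 9.8% in L5 of S1 by 1 or more. In either direction, 18.5% and 15.1% passed the fold with 1 sign in every date.

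Calcium-activated potassium channels open on the calcium that these channels admit. Among 6 of their genes, the largest layer difference in both areas was at an auxiliary subunit, Kcnmb2. Kcnmb2, a beta subunit of the large-conductance channel, had means of 0.40 in V1 L4 and 3.63 in V1 L5, and of 0.92 in S1 L4 and 3.86 in S1 L5. The differences of 3.24 and 2.93 lay above those of 99.6% and 99.1% of genes compared, although in V1 Kcnmb2 did not itself pass the filter on counts, and were above 0 in 2 of 2 and 3 of 3 dates, with SDs of 1.03 and 2.32. Over all dates, Kcnmb2 had a count in 6 of 42 V1 L4 cells, 5 of 34 S1 L4 cells, 9 of 17 V1 L5 cells and 10 of 16 S1 L5 cells. Kcnmb4, another beta subunit of that channel, was higher in L5 by 1.75 in V1 and 1.23 in S1. Its difference was above 0 in 2 of 2 dates in V1 and in 2 of 3 dates in S1. The pore gene Kcnma1 had a count in 92.7% of cells and did not pass the fold in any comparison. Kcnn1, a small-conductance channel, was listed at 0 counts in all 16 S1 L4 cells of dates 1 to 6 and had a mean of 1.36 in S1 L5. There it had a count in 4 of 16 cells, and 1 cell held 46.5% of its counts. In all, 2 of 6 such genes were higher in L5 of V1 and 3 of 6 in L5 of S1, and none was lower. Of all genes compared 22.3% and 23.3% were higher, and of the genes counted here only Kcnmb2 in S1 passed the filter on counts.

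**Figure D5:**
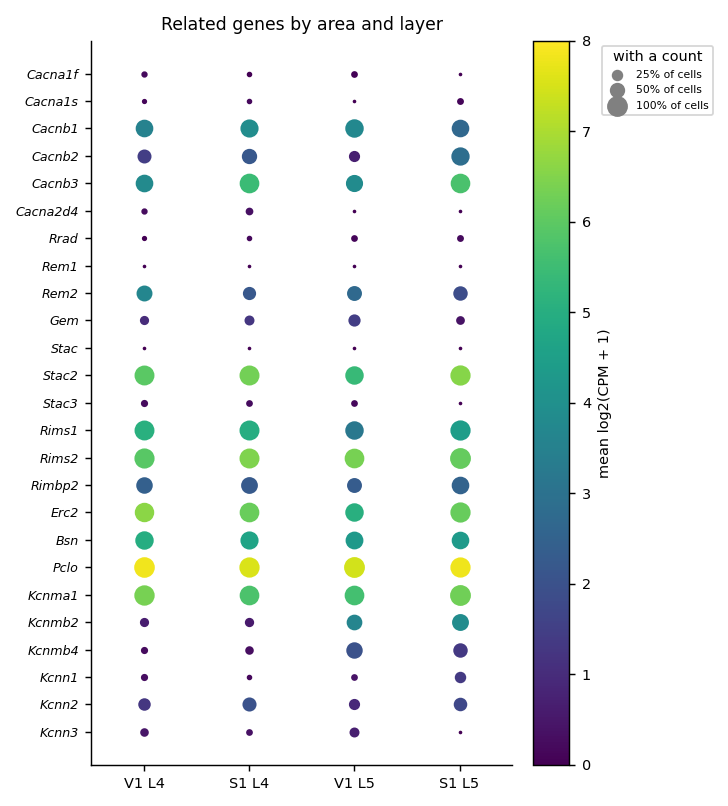
Mean log2(CPM + 1) (color) and percent of cells with a count (point area) for 25 related genes by area and layer, over all kept cells. Kcnmb2 and Kcnmb4 are larger and brighter in both L5 groups than in both L4 groups, and Cacnb3 is brighter in both S1 groups.

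The genes whose values over all kept cells were most like those of a channel gene had moderate correlations among 9993 genes. Cacnb4 had the highest, with Cacng3 (Pearson r = 0.54), Irf2bpl (0.52) and Mal2 (0.51), and Cacnb4 itself correlated with the log10 total count of the cell at 0.46. For Cacna1b the nearest was Sec24a (0.51) and for Cacna1a Top1 (0.50), with total-count correlations of -0.02 and -0.09. For the other 6 channel genes the nearest gene had a correlation between 0.34 (Cacna2d3 with Chd1) and 0.44 (Cacna1e).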

How the data were processed

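The authors aligned the Smart-seq2-based Patch-seq reads to mm10 with STAR 2.4.2a and deposited raw counts per gene for 118 cells. The deposited RPKM values were computed with rpkmforgenes and RefSeq gene models. Entries sharing a symbol were summed, which turned 24490 entries into 23998 symbols, and no pair of cells was identical. Counts were scaled to CPM by each cell's total and taken as log2(CPM + 1). Each area and layer is 1 sample, so no p-value or standard error was computed. A gene entered the background share if 10 or more of the cells compared held 32 or more counts of it. The genes, lists and comparisons were chosen with earlier results of these data known. Named genes are the 9 channel genes, the largest differences of 5 lists of related genes and the 3 genes most correlated with each channel gene. Further genes named from those lists were chosen after their values were seen. The share of beta genes, the medians of genes of at least 7 kb, the Cacna2d2 share per cell and the levels without the top cell were also added after seeing the data. Thinning drew 250000 reads per cell (seed 1). Functions were tested on simulated data. The alternatives changed the scale, unit, pseudocount, depth, summary, cells and dates. The other marker lists pooled over kept cells gave 11.5 CPM for excitatory neurons (Slc17a7, Slc17a6, Neurod6 and Tbr1), 2.04 for Vip plus Lamp5 and 46.8 for astrocytes (Aqp4, Gfap, Gja1 and Slc1a3). One marker of the oligodendrocyte list is not reported here and was left out of its sums. Scripts ran in R 4.3.3, with edgeR 4.0.16 for TMM scaling, and in Python 3.11.15 with pandas 2.3.3, NumPy 2.4.6, matplotlib 3.10.9 and SciPy 1.17.1.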

Additional observations from a re-analysis of the deposited data

Results flagged for a closer look

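The channel genes were also read in most of the 9 cells that the comparisons leave out. Their sum in each kind of cell left out lies above what 3 counts allow. In the 4 S1 L4 cells without an Sst count, the 9 genes summed to 586 CPM, with a limit of 0.54 CPM and beside 1147 CPM over the kept cells. Cacnb4 (310 CPM), Cacna2d2 (105.7 CPM) and Cacna1a (66.8 CPM) were detected in all 4, whereas Cacna1e and Cacna2d1 had no count and Cacna2d3 (17.4 CPM) was detected in 1. The paper left out 3 labelled cells without somatostatin reads, which were fast-spiking and mapped to a Pvalb type. The labels do not mark those 3 cells. The paper's numbers of cells after quality control equal the kept cells here in V1 L4, V1 L5 and S1 L5. By these numbers the 3 cells came from S1 L4 and, having no somatostatin reads, are among these 4. In the 1 glutamatergic cell, from V1 L5, the genes summed to 1749 CPM (limit 3.95 CPM), with Cacna1e at 637 CPM, Cacna2d1 at 387 CPM and Cacnb4 at 7.90 CPM. In the 4 cells under 1500 genes they summed to 942 CPM (limit 8.41 CPM), of which Cacna2d3 gave 334 of 336 counts, all in 1 cell. Only 3 of these 4 cells had any channel gene count, and Cacna1d and Cacna2d2 had 1 count each.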

How the results depend on the processing

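The number of the 9 genes past the fold depended on the setting. Between areas in L4 it was 0, and became 1 with medians over cells, 1 in the June and July dates, 3 in the September dates, 2 with the cells without Sst kept, and 0 to 1 without each date in turn. Between areas in L5 it was 5, and became 2 on RPKM, 8 with a pseudocount of 0.1, 1 with a pseudocount of 10, and 2 (without date 3) to 7 without each date. Between layers of V1 it was 6, and became 1 on RPKM, 1 with a pseudocount of 10, and 2 (without date 3) to 7 without each date. Between layers of S1 it was 3, and became 1 with TMM scaling, on RPKM, with a pseudocount of 10, as the mean within dates and with the cells without Sst kept, 6 with a pseudocount of 0.1, and 2 (without date 6) to 5 (without date 5) without each date. Cacna1b between layers of S1 reversed to 0.44 as the mean within dates. The causes were not tested. Of 612 alternative values of single-gene differences, 43 had the opposite sign, 42 of them for differences that were under the fold and 1 for the difference of Cacna1b just given. Without that one, 595 moved by less than the spread over dates and 16 by more.

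The median balance moved to 0.72 in S1 L4 and 0.93 in S1 L5 without Cacna1e, and to 0.77 in S1 L5 with a pseudocount of 10. Without each date it lay between 1.68 and 2.08 for V1 L4, 1.56 and 1.84 for S1 L4, 1.37 and 2.93 for V1 L5, and 1.22 and 1.47 for S1 L5. The share of Cacna2d3 became 84.7% for S1 L4, 88.6% for V1 L5 and 61.1% for S1 L5 as the mean of shares within cells, and without each date it lay between 93.0% and 94.4% for V1 L4, 90.5% and 91.9% for S1 L4, 92.2% and 94.0% for V1 L5, and 76.2% and 82.3% for S1 L5. With no filter on low counts, the share of all genes past the fold was 6.30%, 13.5%, 14.4% and 13.6% in the 4 comparisons, in place of 15.8%, 33.6%, 37.9% and 33.1%. Beyond the differences within shared dates, no paired analysis was possible because replicate numbers only name the cells and the labels name no animal. With 1 sample per group and 2 to 5 dates per comparison, spread between animals is unknown.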
